A study of Piaractus mesopotamicus with 9 samples.

Results

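The genes described here encode the enzymes and carriers of glucose use: the SLC2A glucose transporters, the enzymes of glycolysis, lactate production, glycogen turnover and gluconeogenesis, and the pyruvate dehydrogenase complex with its kinases. They were matched by name, as every gene name that begins with a fixed set of symbols of these families. The name also had to be carried by a contig (an assembled transcript) whose raw count averaged at least 10 over all libraries. The set of symbols was chosen with earlier results of these data known. The rule found 56 genes on 139 contigs, of 13162 gene names on 35575 contigs in the whole data set. They comprised 7 glucose transporters, 2 hexokinases, 10 genes of upper glycolysis (the steps from glucose-6-phosphate to triose phosphate), 4 bifunctional PFKFB regulators, 10 genes of lower glycolysis (triose phosphate to pyruvate), 2 lactate dehydrogenases, 9 glycogen genes, 3 genes of glucose-6-phosphate and gluconeogenesis, 4 pyruvate dehydrogenase subunits and 5 pyruvate dehydrogenase kinases.

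Messenger RNA was sequenced from cultured pacu (Piaractus mesopotamicus) myotubes, the fused cells that form when muscle precursors differentiate. The cells came from the fast-twitch muscle of pooled juvenile fish and were cultured for 8 days before the steps below. RNA was extracted directly after these steps. In the AA group, cells spent 12 h in amino acid-free medium and then 24 h in a medium with amino acids. In the IGF1 group, the same 12 h were followed by 24 h in amino acid-free medium with recombinant gilthead sea bream IGF1. The CTR group stayed in amino acid-free medium, which held Earle's salts, vitamins and glucose, for 36 h. The treatment field of the labels gives 12 h where the protocol gives 24 h. Each group had 3 libraries from 3 independent cultures. All groups therefore share the amino acid withdrawal, and the AA medium (DMEM) differed from that of the other groups in more than its amino acids, so that amino acids and the remaining components of the medium cannot be told apart in AA. The authors describe the differences between the media as minor, apart from the presence of amino acids or IGF1. They give the glucose concentration of the amino acid-free medium. That of the AA medium was not given in the sources used here.

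Glycolysis splits glucose into pyruvate with a small yield of ATP, and fast-twitch muscle is known for its reliance on it during short bursts of work. Phosphofructokinase is the main controlled step, and its activator fructose 2,6-bisphosphate is made and broken down by the bifunctional PFKFB enzymes. Pyruvate either becomes lactate or enters the mitochondria through pyruvate dehydrogenase, which the PDK kinases switch off, while muscle stores glucose as glycogen through glycogen synthase and releases it through glycogen phosphorylase.

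The total raw count per library ranged from 1366043 (AA replicate 3) to 53525876 (IGF1 replicate 3). In AA replicate 3, 15.1% of the tested contigs had a count of 0, and 7 of the 56 genes were at 0. A gene is represented by its contig with the highest mean raw count, and the values given per library, in the order of replicates 1, 2 and 3, are the deposited counts divided by a size factor, called normalized counts below. Contig lengths were not used here, so levels are compared between groups and not between genes. A gene "passed" when the adjusted p of edgeR's quasi-likelihood test was 0.05 or less, and it was differentially expressed when its log2 fold-change (log2FC) was also at least 1 in either direction. All p-values below are of that test, adjusted over the 35575 contigs.

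The labelled cell type was checked against its markers. Of 45 listed names of muscle contraction and identity, 15 were tested, among them ttn.1, desma, myog and ckma and the fast skeletal names mylpfa, tnnt3a, tnni2b.1 and tnnc2, whereas other fast skeletal names such as myhz1.1, myhz2, myl1, atp2a1 and pvalb1 did not reach the minimum count. The summed normalized count of the 15 ranged from 7621 to 10961 in AA, from 5143 to 5768 in IGF1 and from 6370 to 7325 in CTR. The lower sum in IGF1 does not stand for most of the names. In IGF1 compared to CTR, 12 of the 15 had a positive log2FC (median 0.64), with 3 up-regulated and 1 down-regulated. Fibroblast and mesenchyme names (10 of 13 tested) summed to 157406 to 169611 in AA, 237883 to 245868 in IGF1 and 157212 to 169026 in CTR. No name of the macrophage and blood list or of the liver list was tested. The muscle-type isoforms among the glucose genes were mixed. Tested were eno3, pfkma, aldoaa, pygmb, gys1 and ldha, with mean raw counts of 13.3, 27.3, 33.8, 230, 303 and 807. Scarce were pgam2, pkmb and aldoab, which had mean raw counts of 1.67, 5.67 and 1.0 and were not tested. A further 23 matching names were below the minimum, among them slc2a1a, pck1, gck and gys2. The tested contigs nearest to the minimum were 1 of eno1a (mean raw count 10.2) and that of eno2 (11.0), and the untested ones nearest to it were of pgk1 (8.67) and eno1a (8.56). The rule also took in names outside the core pathway. Counted with the glycogen genes were pygopushomolog 2-like, a Wnt signalling co-activator caught by its first letters, and pgm3. The latter is also on the hexosamine list used below. Counted with lower glycolysis was pgam5, a mitochondrial protein phosphatase. Counts and medians of these roles include such names.

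In AA compared to CTR, 8 of the 56 genes passed, 7 of them down-regulated and 1 up-regulated. That is 14.3% of the genes, near the 13.1% of all 13162 gene names that passed. In the downward direction alone it was 12.5%, with a background of 6.57%, and in the upward direction 1.79%, with 6.56%. Counted over all contigs, 22 of 139 passed (15.8%, with a background of 11.9%). The genes down-regulated in AA were 2 PFKFB regulators, 2 phosphofructokinase subunits, the transporter slc2a1b, the kinase pdk3b and gapdhs. Of the genes of lower glycolysis 1 of 10 passed, and of the glycogen genes none of 9 passed (by edgeR, with log2FC from −0.60 to 0.60). Differential expression, with the 2-fold minimum, was reached by 4 genes, all down-regulated (7.14%, with a background of 7.0% in either direction and 2.96% downward).

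In IGF1 compared to CTR, 13 genes passed, 12 up-regulated and 1 down-regulated. That is 23.2% of the genes, with 6.42% of all gene names, and for up-regulation alone 21.4% with 3.11%. Down-regulation was found in 1 gene (1.79%, with 3.31%). Of the 139 contigs 19 passed (13.7%, with a background of 5.93%). Most of these rises were below 2-fold, and 2 genes, among them pfkfb2b, were differentially expressed (3.57%, with a background of 2.93% in either direction and 1.3% upward). The count was lower when 1 CTR or IGF1 library was left out. It was 8, 7 and 4 without CTR replicates 1, 2 and 3, and 6, 8 and 6 without IGF1 replicates 1, 2 and 3. In AA compared to IGF1, 13 genes passed and all were lower in AA, which is 23.2% with a background of 9.03% in either direction and of 4.8% downward and 4.23% upward. Of the 139 contigs 20 passed (14.4%, with a background of 8.39%). Of the 13 genes, 5 were differentially expressed (8.93%, with a background of 4.76% in either direction and 2.05% downward). That count of 13 was 7 without IGF1 replicate 2 and 7 without IGF1 replicate 3. The share of all gene names that passed in the fits without 1 library is not given here, so these lower counts have no background beside them.

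**Figure D1:**
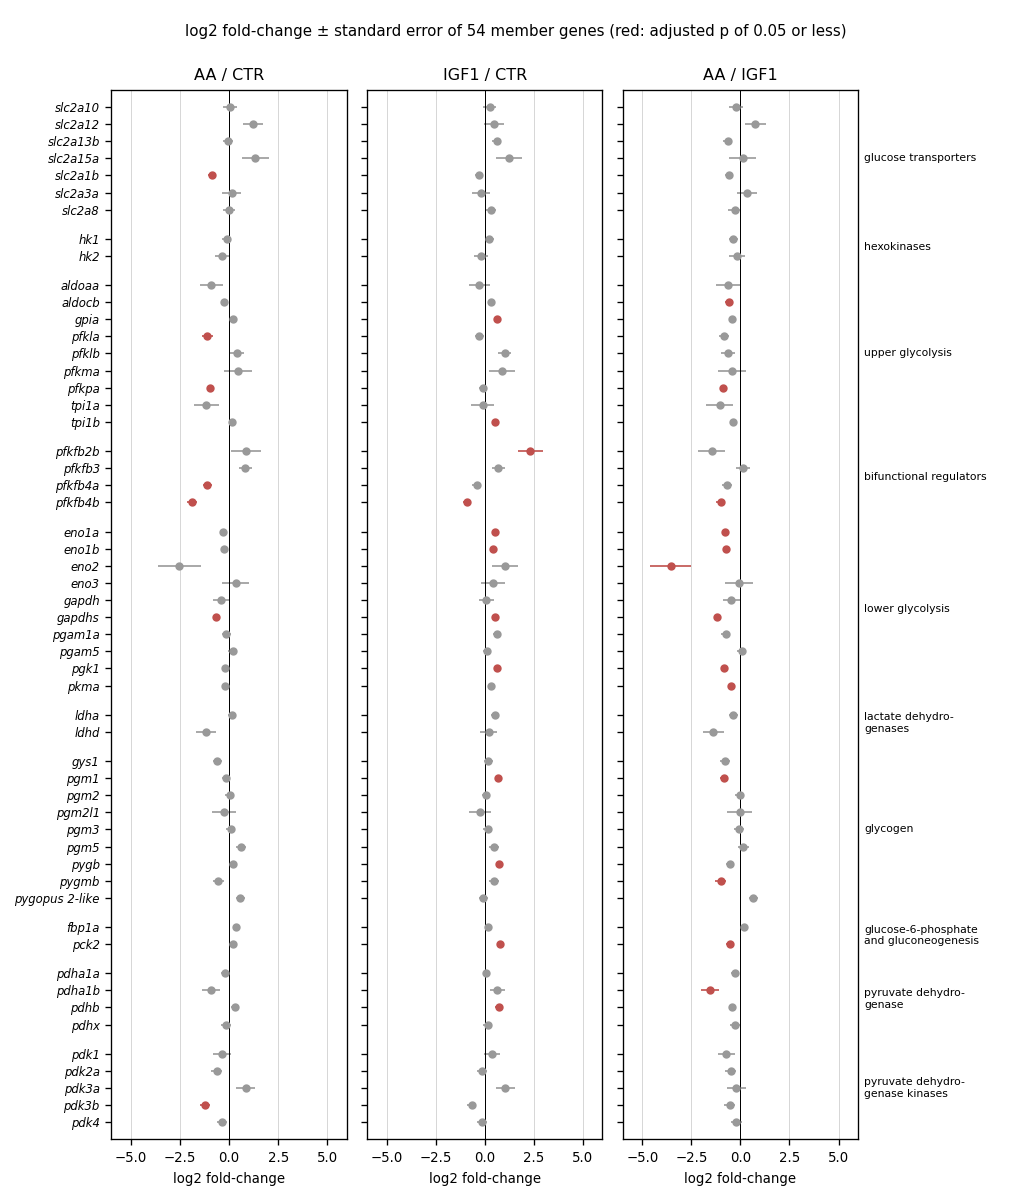
Log2 fold-change (x axis) with its standard error for 54 of the 56 genes, grouped by role, in AA compared to CTR, IGF1 compared to CTR and AA compared to IGF1, with genes at an adjusted p of 0.05 or less in red. In AA compared to CTR the red points lie mostly among transporters, phosphofructokinases and PFKFB regulators, in IGF1 compared to CTR mostly among glycolytic enzymes to the right of 0, and in AA compared to IGF1 all lie to the left of 0.

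Over all 56 genes, the median log2FC was −0.14 in AA compared to CTR, 0.32 in IGF1 compared to CTR and −0.48 in AA compared to IGF1, where the medians over all gene names were 0.03, 0.05 and −0.02. In IGF1 compared to CTR the log2FC was positive for 42 genes, including all 10 genes of lower glycolysis (median 0.47), and negative for 14. Of all 13162 gene names, 7217 had a positive log2FC there. In AA compared to IGF1 the log2FC was negative for 47 genes, including all 10 of upper glycolysis (median −0.62). Of all 13162 gene names, 6748 had a negative log2FC in that comparison. Both comparisons with CTR use the same CTR libraries. All 3 AA libraries lay above all 3 CTR libraries for 7 genes and below them for 16, where 16.4% and 16.2% of all gene names did so. The IGF1 libraries lay above all CTR libraries for 20 genes and below them for 3, with backgrounds of 16.3% and 13.9%. The AA libraries lay above all IGF1 libraries for 2 genes and below them for 28, with backgrounds of 13.0% and 14.6%. The member contigs together took 0.337% to 0.423% of the raw counts in AA, 0.482% to 0.491% in IGF1 and 0.357% to 0.437% in CTR, so that the IGF1 libraries did not overlap the others.

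Among the glucose transporters, slc2a1b, which encodes a GLUT1-type carrier for basal glucose uptake, was the most counted. It had 356, 266 and 225 normalized counts in AA, 359, 459 and 466 in IGF1 and 388, 588 and 585 in CTR. The AA libraries all lay below the CTR libraries, whereas those of IGF1 overlapped them. The gene was down-regulated in AA compared to CTR (log2FC −0.86, SE 0.20, adjusted p = 0.006894), and it did not pass in IGF1 (log2FC −0.29, adjusted p = 0.4777). None of the other 6 transporters passed in any comparison. These were slc2a3a, slc2a8, slc2a10, slc2a12, slc2a13b (a carrier of myo-inositol) and slc2a15a, and the largest of their differences was that of slc2a15a in AA compared to CTR (log2FC 1.34, SE 0.70, adjusted p = 0.2436).

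The hexokinases, which trap glucose in the cell as glucose-6-phosphate, did not pass in any comparison. The more counted of them, hk1, had 125, 167 and 127 normalized counts in AA, 160.2, 159.6 and 220.2 in IGF1 and 115, 183 and 170.1 in CTR, and the groups overlapped. Its log2FC was −0.13 in AA (SE 0.23, adjusted p = 0.7963) and 0.23 in IGF1 (SE 0.22, adjusted p = 0.676).

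The smallest adjusted p among the 56 genes was that of pfkfb4b, a bifunctional enzyme that sets the level of fructose 2,6-bisphosphate. It had 197, 126 and 56.2 normalized counts in AA, 297, 256 and 269 in IGF1 and 541, 477 and 512 in CTR. The 3 groups did not overlap, with AA lowest and CTR highest, although the value of AA replicate 3 rests on 8 raw counts. The gene was down-regulated in AA (log2FC −1.89, SE 0.23, adjusted p = 2.43e-05) and in IGF1 (log2FC −0.89, SE 0.21, adjusted p = 0.0138), and it was lower in AA than in IGF1 (log2FC −1.01, SE 0.24, adjusted p = 0.01029). All 6 of its contigs passed in AA and 5 of 6 in IGF1. The AA call was kept whichever library was left out. The IGF1 call was lost without CTR replicate 3 (adjusted p = 0.0685), IGF1 replicate 2 (0.0525) or IGF1 replicate 3 (0.0778), with limma (0.251) and after thinning to the shallowest library (0.0692), and the call of AA compared to IGF1 without AA replicate 2 (0.0736).

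Its paralog pfkfb4a was also down-regulated in AA. It had 125, 78.4 and 84.4 normalized counts in AA, 153, 154 and 153 in IGF1 and 169, 180.3 and 259.9 in CTR, with no overlap between AA and CTR (log2FC −1.11, SE 0.24, adjusted p = 0.004658). Of its 4 contigs 1 passed, and the call was lost without AA replicate 2 (adjusted p = 0.0538) or CTR replicate 3 (0.0526). The other bifunctional genes gave no fall. For pfkfb3, whose enzyme favours synthesis of the activator, the log2FC was 0.83 in AA (adjusted p = 0.1286) and 0.70 in IGF1 (adjusted p = 0.259). The low-count pfkfb2b had 14.9, 25.6 and 16.8 normalized counts in IGF1, against 6.43, 2.92 and 2.12 in CTR, and it was up-regulated (log2FC 2.31, SE 0.64, adjusted p = 0.03597). That call was lost without CTR replicate 2 or 3 or without any 1 of the IGF1 libraries (adjusted p from 0.0721 to 0.228).

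Subunits of phosphofructokinase were also lower in AA. The platelet-type subunit pfkpa had 429.6, 659 and 562 normalized counts in AA, 816, 1123 and 1075 in IGF1 and 832, 1224 and 1169 in CTR. Every AA library lay below every IGF1 and CTR library, and IGF1 and CTR overlapped. It was down-regulated in AA compared to CTR (log2FC −0.97, SE 0.18, adjusted p = 0.001559) and compared to IGF1 (log2FC −0.87, SE 0.18, adjusted p = 0.004962), in 3 of 4 contigs each time. The liver-type subunit pfkla had 52.9, 99.4 and 56.2 normalized counts in AA, 120.5, 148 and 138 in IGF1 and 133, 184 and 173 in CTR. It fell in AA compared to CTR (log2FC −1.10, SE 0.26, adjusted p = 0.008292), where 2 of its 4 contigs passed, and its value in AA replicate 3 rests on 8 raw counts. Both phosphofructokinase calls against CTR were kept whichever library was left out. The remaining subunits pfklb and pfkma did not pass, with log2FC of 0.38 and 0.46 in AA. The contigs that represent them belong to the same assembled gene, so the assembly does not separate these names as genes.

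**Figure D2:**
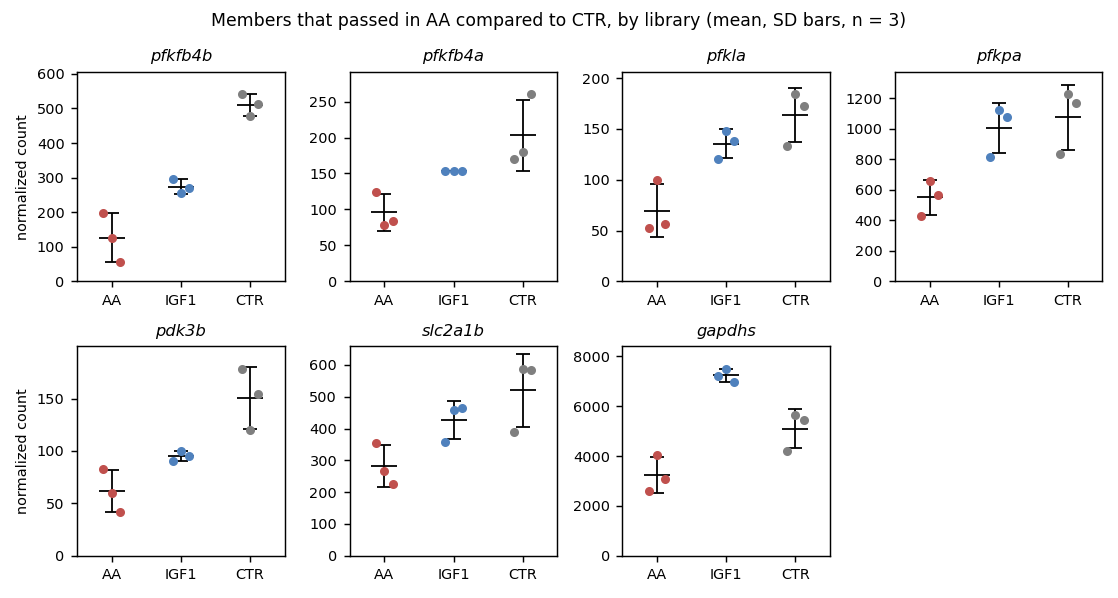
Normalized count (y axis) of the 7 genes down-regulated in AA compared to CTR. Each library of AA, IGF1 and CTR is shown, with the mean and SD of 3 libraries. In all 7 panels the AA points lie below the CTR points, as for pfkfb4b with 56.2 to 197 in AA and 477 to 541 in CTR.

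Other enzymes of upper glycolysis were higher in IGF1. Glucose-6-phosphate isomerase, gpia, had 1912, 2308 and 1927 normalized counts in IGF1, against 1172, 1479 and 1375 in CTR (log2FC 0.61, SE 0.14, adjusted p = 0.01079). Triose phosphate isomerase, tpi1b, had 1250.0, 1131 and 1182 normalized counts in IGF1, against 761, 886 and 817 in CTR (log2FC 0.54, SE 0.14, adjusted p = 0.02433). In both genes the IGF1 libraries lay above the CTR libraries, and neither passed in AA compared to CTR.

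The most counted gene of upper glycolysis, the aldolase aldocb, had 1795, 2549 and 2447 normalized counts in AA, 3020.2, 3802 and 3398 in IGF1 and 2074, 3055 and 2955 in CTR. It passed only between the treatments, where it was lower in AA than in IGF1 (log2FC −0.61, SE 0.15, adjusted p = 0.01767), and its log2FC compared to CTR was −0.27 in AA (adjusted p = 0.2909) and 0.33 in IGF1 (adjusted p = 0.2575). These calls were lost in some fits without 1 library, while the log2FC kept its sign. It ranged from 0.52 to 0.68 for gpia, from 0.49 to 0.59 for tpi1b and from −0.735 to −0.47 for aldocb. That of gpia was lost without CTR replicate 1 or 3 or IGF1 replicate 2 (adjusted p from 0.0516 to 0.0599). The call of tpi1b was lost without CTR replicate 1 or 3 or IGF1 replicate 1 or 3 (0.0903 to 0.114), and that of aldocb without AA replicate 1 or IGF1 replicate 2 or 3 (0.0641 to 0.0954).

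In lower glycolysis, AA and IGF1 moved gapdhs in opposite directions. The name denotes a glyceraldehyde-3-phosphate dehydrogenase, the enzyme that makes the NADH of glycolysis. Its single tested contig had 2599, 4025 and 3086 normalized counts in AA, 7213, 7498 and 6984 in IGF1 and 4207, 5645 and 5429.6 in CTR. The 3 groups did not overlap, with IGF1 highest and AA lowest. The gene was down-regulated in AA compared to CTR (log2FC −0.67, SE 0.15, adjusted p = 0.004855), up-regulated in IGF1 (log2FC 0.50, SE 0.14, adjusted p = 0.04317) and lower in AA than in IGF1 (log2FC −1.17, SE 0.15, adjusted p = 3.184e-05). Both calls that involve AA were kept whichever library was left out, and that of IGF1 compared to CTR was lost when any 1 of the CTR or IGF1 libraries was left out (adjusted p from 0.0547 to 0.194). The contig named gapdh had few counts and did not pass.

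The enolase eno1a, which makes phosphoenolpyruvate, had 3733, 4953 and 4218 normalized counts in AA, 7320.3, 7601 and 7194 in IGF1 and 5155, 5179 and 5256 in CTR. Here too no group overlapped another. It was up-regulated in IGF1 (log2FC 0.50, SE 0.11, adjusted p = 0.008264) and lower in AA than in IGF1 (log2FC −0.79, SE 0.11, adjusted p = 0.0001187), both kept whichever library was left out, whereas AA compared to CTR did not pass (log2FC −0.29, SE 0.11, adjusted p = 0.1045). Without AA replicate 2 that comparison passed with a log2FC of −0.43. The contigs that represent eno1a and eno1b belong to the same assembled gene. The assembly thus does not separate these names as genes, although each is counted. The contig named eno1b had 696, 824 and 759 normalized counts in AA, 1301, 1186 and 1219.7 in IGF1 and 893, 966 and 889 in CTR. It was lower in AA than in IGF1 (log2FC −0.71, SE 0.13, adjusted p = 0.001328), and its rise in IGF1 compared to CTR (log2FC 0.43, adjusted p = 0.04491) was lost when any 1 of the CTR or IGF1 libraries was left out (adjusted p from 0.0652 to 0.201).

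Phosphoglycerate kinase, pgk1, an ATP-making step, had 599, 771 and 914 normalized counts in AA, 1261, 1357 and 1347 in IGF1 and 713, 949.7 and 924 in CTR. The IGF1 libraries stood above all others, and AA and CTR overlapped. It was up-regulated in IGF1 (log2FC 0.61, SE 0.15, adjusted p = 0.01497), a call that did not hold when CTR replicate 1 (0.0811) or IGF1 replicate 3 (0.0727) was left out. It was lower in AA than in IGF1 (log2FC −0.84, SE 0.15, adjusted p = 0.001487).

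Pyruvate kinase, pkma, the last ATP-making step, passed only between the treatments, with 2377, 3399 and 3459 normalized counts in AA and 4098, 4506 and 4284 in IGF1 (log2FC −0.50, SE 0.13, adjusted p = 0.02061). That call was lost without AA replicate 1 or IGF1 replicate 2 or 3 (0.0727 to 0.098). The neuronal enolase eno2 had only 2 raw counts over the AA libraries and 70 over the IGF1 libraries. Per unit of size factor the ratio of AA to IGF1 was 0.0924, with an exact 95% interval of 0.011 to 0.346 that covers counting error only. It passed in AA compared to IGF1 (adjusted p = 0.03776) and lost the call without CTR replicate 2 or any 1 of the AA or IGF1 libraries (0.0512 to 0.113). The phosphoglycerate mutase pgam1a did not pass, with log2FC of −0.14 in AA and 0.62 in IGF1 (adjusted p = 0.7793 and 0.1324).

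**Figure D3:**
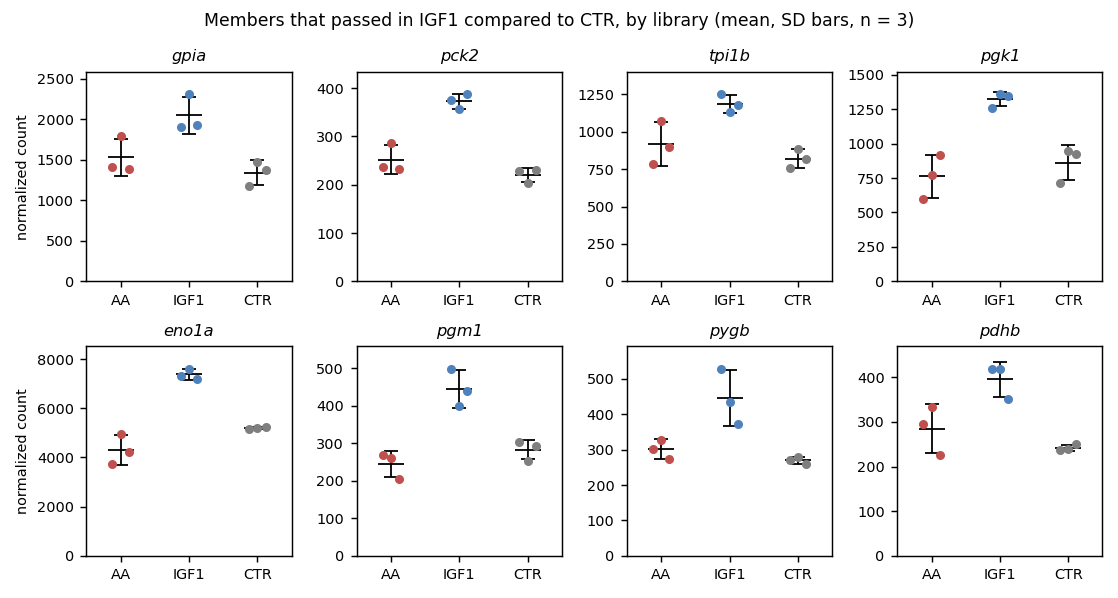
Normalized count (y axis) of 8 of the 12 genes up-regulated in IGF1 compared to CTR. Each library of AA, IGF1 and CTR is shown, with the mean and SD of 3 libraries. The down-regulated pfkfb4b is not among the panels. In every panel the 3 IGF1 points lie above the 3 CTR points, as for eno1a with 7194 to 7601 in IGF1 and 5155 to 5256 in CTR.

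Lactate dehydrogenase ldha, which turns pyruvate into lactate, had 362, 519 and 492 normalized counts in AA, 443, 724 and 618 in IGF1 and 259, 529 and 438 in CTR. The groups overlapped, and it did not pass in AA (log2FC 0.15, SE 0.23, adjusted p = 0.7534) or in IGF1 (log2FC 0.52, SE 0.22, adjusted p = 0.2105). The sign of the AA value turned without AA replicate 2 (−0.02) or CTR replicate 1 (−0.09). The other lactate dehydrogenase name, ldhd, a D-lactate enzyme, did not pass either.

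Glycogen genes were higher in IGF1 in part. Phosphoglucomutase pgm1, which links glucose-1-phosphate with glucose-6-phosphate, had 269, 261 and 204 normalized counts in AA, 499, 399 and 439 in IGF1 and 304, 254 and 292 in CTR. All IGF1 libraries lay above those of both other groups. It was up-regulated in IGF1 compared to CTR (log2FC 0.66, SE 0.16, adjusted p = 0.01618) and lower in AA than in IGF1 (log2FC −0.85, SE 0.17, adjusted p = 0.003574).

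The brain-type glycogen phosphorylase pygb had 529, 436 and 372 normalized counts in IGF1, against 269.9, 280.3 and 259 in CTR (log2FC 0.72, SE 0.16, adjusted p = 0.009749). The muscle-type phosphorylase pygmb had 67.7, 98.1 and 112 normalized counts in AA, 143, 237 and 174 in IGF1 and 85.1, 175 and 133 in CTR. It was differentially expressed between AA and IGF1 (log2FC −1.002, SE 0.29, adjusted p = 0.03609). Compared to CTR it did not pass in IGF1 (0.45, adjusted p = 0.4006) or in AA (−0.55, adjusted p = 0.2414). Glycogen synthase gys1 did not pass in AA compared to CTR (log2FC −0.60, adjusted p = 0.1368), in IGF1 compared to CTR (0.19, adjusted p = 0.7582) or in AA compared to IGF1 (−0.78, adjusted p = 0.06237). The IGF1 call of pgm1 was lost without CTR replicate 2 or 3 or IGF1 replicate 1 or 3 (0.0689 to 0.112) and that of pygb without CTR replicate 3 (0.0727) or IGF1 replicate 1 (0.101). The pygmb call was lost without AA replicate 1 or 2, CTR replicate 3 or IGF1 replicate 2 or 3 (0.0576 to 0.155). The call of pygmb was also lost with counts summed per gene name, with limma, with no normalization beyond the library size and after thinning. With counts summed per gene name, the IGF1 calls of pgm1 and pygb were not reached either.

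The mitochondrial phosphoenolpyruvate carboxykinase pck2, an entry to gluconeogenesis, had 237, 287 and 232 normalized counts in AA, 376, 356 and 387 in IGF1 and 228, 204 and 231 in CTR. It was up-regulated in IGF1 (log2FC 0.76, SE 0.16, adjusted p = 0.005467), a call kept whichever library was left out. It was also lower in AA than in IGF1 (log2FC −0.55, SE 0.17, adjusted p = 0.0471), a call that held in 1 of the 9 fits without a library (the others from 0.0549 to 0.167). Fructose-1,6-bisphosphatase, fbp1a, did not pass in any comparison.

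For the pyruvate dehydrogenase complex, the E1 beta subunit pdhb was up-regulated in IGF1, with 418, 419 and 351 normalized counts against 236, 240.2 and 249.7 in CTR (log2FC 0.70, SE 0.17, adjusted p = 0.0136). The most counted E1 alpha subunit, pdha1a, had 303, 319.9 and 359 normalized counts in AA, 454, 379 and 332 in IGF1 and 345, 445 and 337 in CTR, and it did not pass in AA (log2FC −0.23, adjusted p = 0.4545) or in IGF1 (0.05, adjusted p = 0.9304). Its paralog pdha1b was lower in AA than in IGF1, with 8.47, 16.2 and 14.1 against 41.1, 34.2 and 41.2 normalized counts (log2FC −1.55, SE 0.46, adjusted p = 0.04212). The pdhb call was lost without CTR replicate 2 or 3 or IGF1 replicate 1 (0.0576 to 0.0777). The pdha1b call held in 1 of the 9 fits without a library (the others from 0.0505 to 0.145). It was also lost after thinning (0.488) and with only the 2 groups compared (0.0903), and its AA values rest on 4, 24 and 2 raw counts.

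Of the kinases that inactivate the complex, pdk3b was down-regulated in AA. It had 82.5, 60.2 and 42.2 normalized counts in AA, 90.0, 99.7 and 95.1 in IGF1 and 178, 119.7 and 154 in CTR, with all AA and all IGF1 libraries below the CTR libraries. Only the AA difference passed (log2FC −1.22, SE 0.26, adjusted p = 0.004338), in 2 of 3 contigs, and was lost after thinning all libraries to the depth of the shallowest (adjusted p = 0.0696), whereas that of IGF1 did not pass (log2FC −0.67, SE 0.24, adjusted p = 0.1126). The difference between the treatments did not pass either (log2FC −0.55, adjusted p = 0.2525). The most counted kinase, pdk2a, had 190.5, 219.8 and 42.2 normalized counts in AA, 250.2, 288 and 203 in IGF1 and 303, 227 and 273 in CTR, and it did not pass (log2FC −0.63 in AA, adjusted p = 0.1669). AA replicate 3, with 6 raw counts, lay far below the other AA libraries there. The kinases pdk1, pdk3a and pdk4 did not pass in any comparison.

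Genes of neighbouring pathways, from fixed lists, were read in the same fit. Of the partners of glycogen turnover (12 of 30 tested), only ugp2b passed in AA compared to CTR. It encodes a UDP-glucose pyrophosphorylase, which makes the glucose donor of glycogen synthesis, and it had 279, 313 and 267 normalized counts in AA, 608, 744 and 679 in IGF1 and 593, 864 and 765 in CTR. It was differentially expressed in AA compared to CTR (log2FC −1.36, SE 0.16, adjusted p = 1.993e-05) and to IGF1 (−1.22, adjusted p = 7.538e-05). Its paralog ugp2a passed in AA compared to IGF1 alone (−1.20, adjusted p = 0.03392), and none of the 12 passed in IGF1 compared to CTR. Of the hexosamine and polyol genes (8 of 11 tested), gfpt2, the first enzyme of the hexosamine pathway, fell in AA compared to CTR (−1.35, adjusted p = 0.004651) and compared to IGF1 (−1.44, adjusted p = 0.004158), and uap1 fell in IGF1 compared to CTR (−1.04, adjusted p = 0.03128).

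In the pentose phosphate pathway (9 of 11 tested), 3 genes rose and 1 fell in AA compared to CTR, and 2 rose in IGF1. The gene pgd, whose enzyme makes NADPH, had 908, 1215 and 1279.5 normalized counts in AA, 1061, 1123 and 1061 in IGF1 and 641, 589.8 and 651 in CTR, and it rose in both (log2FC 0.83, adjusted p = 0.0005217, and 0.78, adjusted p = 0.001019). Transketolase tktb also rose in both (0.54, adjusted p = 0.002614, and 0.37, adjusted p = 0.04768). In AA, rpe rose as well (1.15, adjusted p = 0.01418), whereas transaldolase taldo1 fell (−0.49, adjusted p = 0.01294). In AA compared to IGF1, taldo1 (−0.47, adjusted p = 0.02227) and prps1b (−0.75, adjusted p = 0.03119) were lower.

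Of the redox shuttles that carry the electrons of cytosolic NADH into mitochondria (12 of 17 tested), mdh2, got1 and got2a fell in AA compared to CTR (log2FC −0.59, −0.66 and −0.48, adjusted p = 0.005368, 0.02671 and 0.01199). These and mdh1ab, slc25a11 and slc25a12 were lower in AA than in IGF1, and none of the 12 passed in IGF1 compared to CTR. Of the genes of pyruvate import and its mitochondrial partners (10 of 20 tested), pyruvate carboxylase pcxa rose in IGF1 (0.68, adjusted p = 0.008258) and was lower in AA than in IGF1 (−0.66, adjusted p = 0.01011). The listed name dld passed in AA (1.67, adjusted p = 0.02736), although its AA replicate 3 value of 7.03 lay below all CTR values. In zebrafish naming, however, dld is the Notch ligand deltaD and no partner of pyruvate dehydrogenase. The dehydrogenase subunit of the complex is dldh, which did not pass in any comparison.

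Of the genes of glucose-use control (24 of 36 tested), 1 rose and 5 fell in AA compared to CTR and 4 fell in IGF1. The arrestin txnipa, whose protein restrains glucose uptake in mammals, had 7448, 6344 and 7129 normalized counts in AA, 9060.0, 8766 and 8597 in IGF1 and 12399, 10882 and 12212 in CTR. The 3 groups did not overlap, and it fell in AA (log2FC −0.78, SE 0.10, adjusted p = 2.487e-05) and in IGF1 (−0.43, SE 0.10, adjusted p = 0.009995). Its paralog txnipb fell in AA (−1.61, adjusted p = 0.002242). Both txnip genes were lower in AA than in IGF1 (txnipa −0.36, txnipb −1.23). The hypoxia factor hif1ab fell in AA (−0.53, adjusted p = 0.008894), and foxo1a and irs2b fell in both treatments (foxo1a −0.69 in AA and −1.06 in IGF1, irs2b −1.06 in AA and −1.13 in IGF1). The largest fall of the list in IGF1 was that of irs2a, an adaptor of the insulin and IGF receptors (−1.79, adjusted p = 0.004497), and the gene that rose in AA was the kinase akt1 (0.79, adjusted p = 0.01483). The difference between AA and IGF1 did not pass for hif1ab, foxo1a or irs2b.

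Other marker lists moved with the treatments and stand beside all of these results. In AA compared to CTR, 11 of 15 tested muscle names were up-regulated and 1 was down-regulated (log2FC −1.28). All 11 of 11 tested proliferation names were up-regulated there. The proliferation names summed to 856 to 978 normalized counts in AA, 379 to 502 in IGF1 and 223 to 287 in CTR. In IGF1, 7 of 10 fibroblast and mesenchyme names were up-regulated. The 4 tested keratin names of the epithelium list fell in AA, with sums of 28380 to 30831 in AA, 60046 to 64437 in IGF1 and 70213 to 71548 in CTR. The 5 tested adipocyte names summed to 472 to 587 in AA, 473 to 504.4 in IGF1 and 1666 to 1867 in CTR. Of these, lepa and lepb fell in AA (log2FC −2.05 and −2.28) and in IGF1 (−2.09 and −2.46), and lpl rose in AA (1.16). The lower adipocyte sum in IGF1 does not stand for most of the names. There plin1, lpl and cidec had a positive log2FC (0.52, 0.76 and 0.96) and did not pass. In AA, plin1 and cidec did not pass (−1.03 and 0.50). In such bulk libraries, fewer cells of a type and less RNA per cell cannot be told apart, and the part of cell composition in the changes of the glucose genes was not tested.

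**Figure D4:**
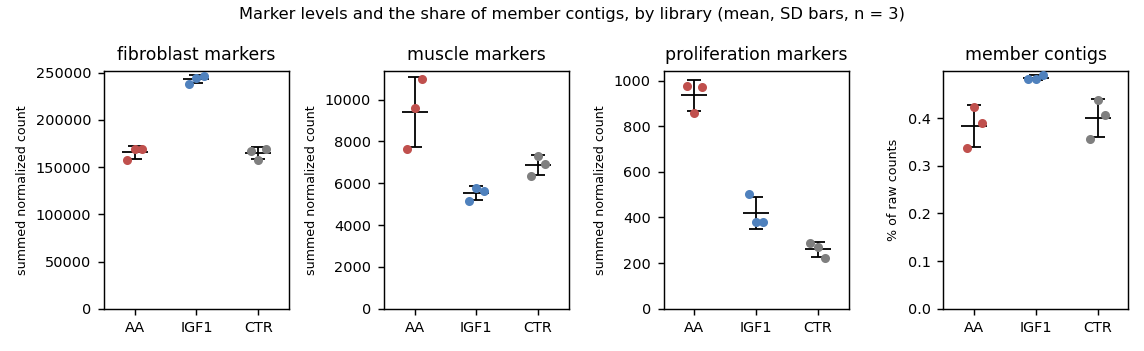
Summed normalized counts of the fibroblast, muscle and proliferation marker lists and the percent of raw counts on the 139 contigs (y axes), per library for AA, IGF1 and CTR. Fibroblast sums and the share of the glucose genes are highest in the 3 IGF1 libraries, at 237883 to 245868 and 0.482% to 0.491%, whereas muscle and proliferation sums are highest in AA.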

How the data were processed

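Messenger RNA of 9 libraries was analysed. The authors trimmed the paired-end reads with Trimmomatic after FastQC 0.11.8, assembled them, annotated contigs against fish proteins and mapped reads with Bowtie2; the counting tool is not given in the sources used here, and no genome build applies to the contigs. The deposited raw counts are whole numbers per contig. The signal values, as deposited by the authors, are those counts divided by DESeq2 size factors. Contigs of 1 name, and near-identical paralogs, can share reads.

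Counts of contigs with a mean of 10 or more were fitted with edgeR 4.0.16 (R 4.3.3; TMM, quasi-likelihood F test, earlier deviance method) over all 9 libraries, with group as the only term and Benjamini-Hochberg adjustment. The standard error is the log2FC over the square root of F. The fit was tested on simulated data. Members were matched by name in lower-case letters. Genes called in a comparison are given with the values of each library of at least the groups compared. For eno2, raw counts summed per group are given instead. The most counted gene of each role is given in every library, and the others are given in counts. Genes of the neighbouring lists are named when they passed. The results of 2 members are not reported here singly, though counts and medians include them. Members and lists were chosen with earlier results of these data known. Same-numbered libraries are not stated to share a culture, so p-values measure the spread between these libraries. Alternatives were the DESeq2 1.42.0 Wald test, limma 3.58.1 on log2 of the normalized count plus 1, other normalizations and filters, sums per name, thinning to the shallowest library, and each library left out.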

Additional observations from a re-analysis of the deposited data

How the results depend on the processing

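The fold-change minimum decided most of the differential expression: without it, the counts were 8 in AA compared to CTR, 13 in IGF1 compared to CTR and 13 in AA compared to IGF1, in place of 4, 2 and 5. With no normalization beyond the library size, which moved the median log2FC of all contigs to 0.12 in AA compared to CTR and 0.15 in AA compared to IGF1, the counts were 2 in AA compared to CTR and 1 in AA compared to IGF1. For AA compared to IGF1 the count was 3 with sums per gene name, 3 with median-of-ratios normalization, 2 with only the 2 groups compared and 2 after thinning. For IGF1 compared to CTR it was 1 with DESeq2, with limma, after thinning and with the replicate number as a block. Genes that passed in IGF1 compared to CTR numbered 5 with sums per gene name and 7 after thinning, in place of 13. After thinning, 6 passed in AA compared to CTR and 10 in AA compared to IGF1, in place of 8 and 13. The cause of these shifts was not tested. The share of all gene names that passed in these fits, without 1 library or with a block is not given here.

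Without 1 library, 6 to 9 genes passed in AA compared to CTR, 4 to 13 in IGF1 compared to CTR and 7 to 13 in AA compared to IGF1, and 3 to 6, 0 to 2 and 2 to 4 were differentially expressed. Passed in every fit without a library were 6 of 8, 2 of 13 and 6 of 13.

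Role medians with no normalization were 0.38 for glucose-6-phosphate and gluconeogenesis, 0.11 for glycogen, −0.55 for lower glycolysis and −0.18 for pyruvate dehydrogenase in AA compared to IGF1, and 0.18 for glycogen in AA compared to CTR. With limma they were −0.55 for glycogen in AA compared to IGF1 and −1.13 for the kinases in AA compared to CTR. The bifunctional median was −0.34 in AA and 0.0075 in IGF1 compared to CTR after thinning, and 0.23 in IGF1 with sums per name. Without 1 library, in AA compared to CTR, the medians ranged from −0.44 to 0.0107 for bifunctional regulators, −0.0678 to 0.14 for glycogen, −1.38 to −0.28 for lactate dehydrogenases and −0.79 to 0.0556 for upper glycolysis. In IGF1 compared to CTR they ranged from 0.0132 to 0.22 for bifunctional regulators, 0.15 to 0.42 for glycogen and −0.27 to 0.17 for hexokinases. In AA compared to IGF1 they ranged from −1.10 to −0.71 for bifunctional regulators, −0.59 to −0.058 for glycogen, −0.41 to 0.0244 for hexokinases, −1.74 to −0.65 for lactate dehydrogenases, −0.89 to −0.67 for lower glycolysis, −0.49 to −0.33 for pyruvate dehydrogenase and −0.91 to −0.44 for upper glycolysis.

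Among the genes given per library, signs turned only in some that did not pass: hk1 in AA compared to CTR with no normalization (0.0145), ldha in AA compared to CTR (−0.0895 to 0.37 without 1 library) and pdha1a in IGF1 compared to CTR (−0.0943 to 0.19 without 1 library).

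Residuals of same-numbered libraries correlated from −0.05 to 0.11 over 9 pairs, and exceeded 0.1 in 2 of them. Pairs with different numbers ranged from −0.09 to 0.08. These values, taken over all tested contigs, cannot decide whether same-numbered libraries share a culture, and the main fit does not pair them. With the replicate number as a block, 9, 15 and 18 genes passed in AA compared to CTR, IGF1 compared to CTR and AA compared to IGF1, and 4, 1 and 5 were differentially expressed. Added by the block were eno1a in AA compared to CTR, aldocb, ldha and pgam1a in IGF1 compared to CTR, and gpia, gys1, pfkla, pgam1a and pygb in AA compared to IGF1, while pfkfb2b was lost.

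Depth limits the low genes most: 24 of the 56 had under 10 raw counts in AA replicate 3.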

Other observations

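Same-numbered libraries of the 3 groups shared an order in some of these genes. Of the 38 genes whose raw count averaged at least 100, replicate 1 was the lowest library of its group in AA, IGF1 and CTR alike for 13 (34.2%), among them ldha, gys1, pygmb, pgam1a, pfkpa, pgk1 and pkma. Over all 6527 gene names at that count the share was 7.15%. Replicate 2 was the highest in all 3 groups for 7 of the 38 (18.4%), where 5.85% of all names did so. For ldha, replicate 1 had 362, 443 and 259 normalized counts in AA, IGF1 and CTR, and replicate 2 had 519, 724 and 529. The labels do not say what a shared number stands for, and the genes were picked out after their values were seen.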
